A study of Mus musculus with 8 samples.

Results

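Regulatory T (Treg) cells are the suppressive CD4 T cells marked by the transcription factor Foxp3, and their activity depends on signals from the T cell receptor. The 38 genes described here encode the machinery of that receptor: its CD3 and zeta chains, the coreceptor Cd4 and the costimulatory receptor Cd28, the kinases, adaptors and transcription factors that carry the signal, and the enzymes that limit it. They were chosen by symbol, and all 38 were found among the 19191 gene rows of the RNA-seq count table. By textbook role, 24 were taken as activating, 12 as inhibitory and 2, Ptprc and Themis, as both. Treg cells were sorted from the large intestine lamina propria of C57BL/6 mice by flow cytometry, and their total RNA, depleted of ribosomal RNA, was sequenced. The groups called WT carried the genotype Ahrf/+ Foxp3Yfp-Cre and those called KO carried Ahrf/- Foxp3Yfp-Cre, with 2 libraries each. The product of Ahr, the aryl hydrocarbon receptor, binds dietary and microbial ligands and then acts on transcription. In all 4 libraries Cre made from the Foxp3 locus acted on a floxed Ahr allele, and the other allele was intact in WT and null in KO, so WT Treg cells kept 1 copy and the other cells of KO mice lacked 1 copy. Effects inside Treg cells and effects of the surrounding tissue therefore cannot be told apart. The labels used here state neither age nor whether a replicate is its own animal, and the p-values then reflect only the spread between these libraries, which may be technical.

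When a T cell receptor meets its antigen, the kinase Lck, held at the coreceptor, phosphorylates the CD3 and zeta chains, and Zap70 docks there. Zap70 then phosphorylates the adaptors Lat and Lcp2, around which the phospholipase Plcg1, the exchange factors Vav1 and Sos1 and other proteins assemble. Calcium brings the NFAT factors into the nucleus, and diacylglycerol activates Prkcq, which reaches NF-kappaB through Bcl10 and Malt1. Phosphatases, the kinase Csk, ubiquitin ligases and diacylglycerol kinases oppose these steps. In Treg cells receptor signals are needed for suppressive function, and their strength is tuned by these brakes.

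Libraries held 26862922 to 62402450 gene counts, and replicate 2 was the deeper library in both genotypes. Member counts ran from 1258 (Nck1 in WT replicate 1) to 445608 (Tnfaip3 in KO replicate 2). Levels are given as CPM, counts per 1000000 counts of the library, scaled with the TMM method. Transcript lengths were not used here, so CPM are compared between libraries and not between genes. The Treg markers Foxp3, Il2ra, Ctla4, Ikzf2, Tnfrsf18 and Il10 summed to 6726 to 7513 CPM, while the CD8 T cell markers Cd8a, Cd8b1 and Gzmk summed to 5.88 to 8.25 CPM. Whole-gene Ahr levels were 581 and 539 CPM in WT against 536 and 518 CPM in KO, and since counts per gene do not show the deleted part, they check neither the deletion nor the labels. Ahrr, a repressor that Ahr induces, stood at 7.30 and 6.55 CPM in WT against 0.391 and 0.265 CPM in KO.

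No gene of the receptor machinery passed the test of KO against WT on genotype alone, and the estimated differences were small. The log2 fold changes of KO over WT ran from -0.21 for Ptpn6 to 0.30 for Themis, with a median of 0.04 (25 higher, 13 lower), against a median of 0.01 over all 14274 genes tested. All 38 members passed the filter on low counts. None of the 38 was called by edgeR's quasi-likelihood test on genotype alone at a Benjamini-Hochberg adjusted p under 0.05 (adjusted p = 1.00 for each), where 0% of all tested genes were called. At an unadjusted p under 0.05 edgeR counted 1 member, Themis, against 2.85% of all tested genes. DESeq2 called 0 members against 0.285% of the genes to which it gave an adjusted p, and limma-voom called 0 against 0%. Ahrr, with a log2 fold change of -4.42, was not called by edgeR (adjusted p = 0.218) or limma-voom (adjusted p = 0.312). DESeq2 called Ahrr (adjusted p = 2.9e-18). The lack of an edgeR call therefore does not show that a gene was unchanged. In the authors' deposited table, whose adjusted p-value is read as that of KO against WT, 0 members were under 0.05 against 0.344% of its rows. That table gave Tnfaip3 the lowest adjusted p-value of the members, 0.0632, followed by Ptpn6 with 0.800. It gave 35 members the value 0.889 that 95.3% of its rows shared.

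The intervals give the sizes of difference that these libraries leave possible. The 95% interval of the fold change lay within 1.5-fold in either direction for 35 of the 38 members, against 57.1% of all tested genes with an interval, and within 2-fold for all 38, against 74.5%. The exceptions at 1.5-fold were Cd3e (log2 interval -0.63 to 0.38), Grb2 (-0.43 to 0.72) and Nfkbia (-0.18 to 0.60). The median standard error was 0.10 for the members and 0.15 over all tested genes. Every member had at least 1258 counts in each library, and the part of count level in the narrower intervals was not tested.

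**Figure D1:**
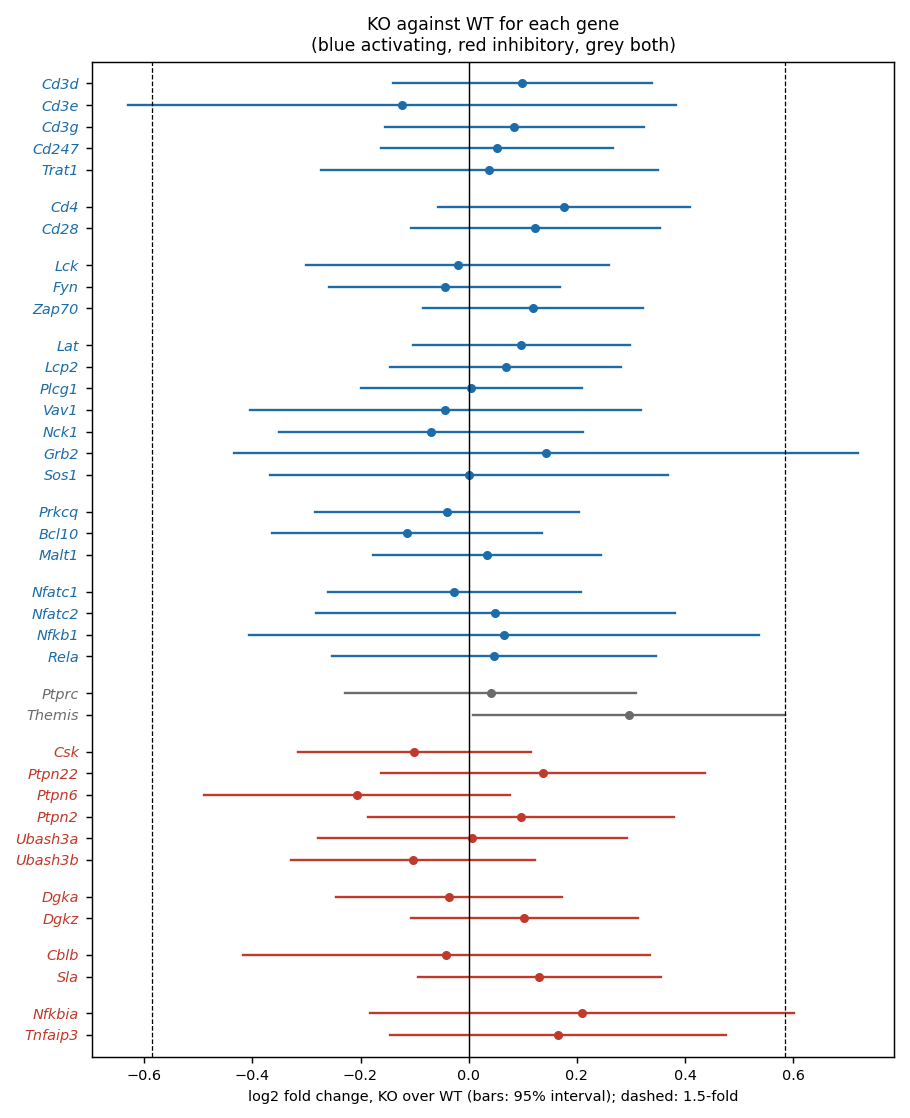
Log2 fold change of KO over WT (x axis) for each gene (y axis, ordered by role), with points for the edgeR estimate and bars for its 95% interval. Every bar except that of Themis (0.01 to 0.58) crosses 0, and the bars of Cd3e, Grb2 and Nfkbia pass a dashed line at 1.5-fold.

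Among the chains of the receptor, Cd3d, Cd3g and Cd247 showed small positive values and Cd3e a small negative one, none of them called. Cd3d, Cd3e and Cd3g encode the CD3 chains and lie together on chromosome 9 (mm9, Cd3g at 44777655 to 44788514 on the minus strand, Cd3d at 44789876 to 44795135 on the plus strand, Cd3e at 44806826 to 44817673 on the minus strand). Cd3d stood at 264 and 297 CPM in WT replicates 1 and 2 and at 306 and 296 CPM in KO replicates 1 and 2, the order used for all values below. WT replicate 1 was the lowest of the 4 libraries and the groups overlapped, with a log2 fold change of 0.10 ± 0.10 (SE). Cd3g stood at 410, 458, 470 and 450 CPM and repeated that order of WT replicate 1 lowest and KO replicate 1 highest (0.08 ± 0.10). Cd3g and Cd3d are transcribed in opposite directions from starts separated by 1.36 kb, and the ratio of Cd3g to Cd3d CPM stayed between 1.52 and 1.55 in the 4 libraries.

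Cd3e, whose product pairs with both other CD3 chains, had a different order of libraries from its neighbours. It stood at 118 and 87.2 CPM in WT against 108 and 80.7 CPM in KO, so replicate 2 was lower than replicate 1 in both genotypes. The genotypes overlapped (-0.12 ± 0.20, with -0.13 and -0.11 within the replicates). The ratio of Cd3d to Cd3e CPM was 2.24 and 3.41 in WT and 2.84 and 3.67 in KO. Cd247, which encodes the zeta chain that carries most of the signalling motifs, stood at 316, 325, 343 and 321 CPM (0.05 ± 0.09, 95% interval -0.16 to 0.27). Trat1, a transmembrane adaptor that binds the receptor complex, stood at 85.6, 71.6, 84.0 and 77.3 CPM (0.04 ± 0.12). The groups overlapped for Cd247, and the KO libraries of Trat1 lay between the WT libraries.

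Cd4 and Cd28 were both a little higher in KO, and in both the KO libraries lay above the WT libraries, but neither was called. Of all tested genes, 13.5% had both KO libraries above both WT libraries and 13.4% had them below. Cd4, the coreceptor that binds class II MHC and brings Lck to the receptor (chromosome 6, 124814710 to 124838239, minus strand, mm9), stood at 1043 and 1090 CPM in WT against 1234 and 1175 CPM in KO. The Cd4 value was 0.18 ± 0.09 (95% interval -0.06 to 0.41), the largest among the activating members, and the replicates gave 0.24 and 0.11. Cd28, the receptor for the costimulatory ligands Cd80 and Cd86, stood at 876 and 912 CPM in WT against 945 and 1002 CPM in KO (0.12 ± 0.09, with 0.11 and 0.14 within the replicates). In bulk samples a different number of cells of a type and a different amount of RNA per cell cannot be told apart.

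Of the proximal kinases, Zap70 alone had both KO libraries above both WT libraries. Zap70 was the steadiest in WT, at 336 CPM in both libraries, and stood at 359 and 372 CPM in KO (0.12 ± 0.08, 95% interval -0.08 to 0.32). Lck, the kinase that starts the cascade, differed more between replicates than between genotypes. It stood at 404 and 467 CPM in WT against 407 and 452 CPM in KO (-0.02 ± 0.11). Fyn, a related kinase, stood at 381, 375, 354 and 378 CPM (-0.04 ± 0.09) and the groups overlapped.

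The adaptors and effectors that assemble after Zap70 gave 5 values above 0 and 2 below, none called, with a range of -0.07 to 0.14. Lat, the membrane scaffold that Zap70 phosphorylates (chromosome 7, 133507346 to 133513057, minus strand, mm9), differed little between replicates, at 420 and 423 CPM in WT against 450 and 452 CPM in KO. The KO libraries lay just above the WT libraries (0.10 ± 0.08). Lcp2, the cytosolic scaffold SLP76, stood at 405, 430, 444 and 431 CPM (0.07 ± 0.09), with the KO libraries above the WT libraries by a margin of under 1 CPM. Plcg1, the phospholipase that makes the calcium and diacylglycerol signals, stood at 388, 390, 384 and 398 CPM (0.00 ± 0.08), with a 95% interval of -0.20 to 0.21. The exchange factor gene Vav1 stood at 129 and 166 CPM in WT against 135 and 150 CPM in KO (-0.04 ± 0.14), with replicate 2 higher in both genotypes.

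The small adaptor genes were less even. Grb2, which links Lat to Sos1, stood at 129 and 87.9 CPM in WT against 138 and 101 CPM in KO. The gap between replicates was wider than that between genotypes (0.14 ± 0.23, with 0.10 and 0.21 within the replicates). Sos1, the exchange factor for Ras that Grb2 carries, stood at 49.3, 41.5, 49.6 and 41.2 CPM (0.00 ± 0.15), also with replicate 2 lower in both genotypes. Nck1, an adaptor to the actin cytoskeleton, stood at 46.8, 42.9, 44.8 and 40.6 CPM (-0.07 ± 0.11).

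The branch to NF-kappaB held no called gene. Prkcq, the kinase PKC-theta, stood at 153, 156, 159 and 141 CPM (-0.04 ± 0.10). Bcl10, an adaptor that forms filaments on activation, stood at 159, 141, 141 and 136 CPM (-0.11 ± 0.10), lower in KO within both replicates (-0.17 and -0.05). Malt1, the paracaspase that Bcl10 brings together, was nearly level at 657, 646, 657 and 677 CPM (0.03 ± 0.08).

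The transcription factors at the end of the pathway held no called gene, and the groups overlapped for all 4. Nfatc1 stood at 203, 189, 201 and 184 CPM (-0.03 ± 0.09). Nfatc2 went in opposite directions in the replicates, with 73.9 and 65.0 CPM in WT against 65.5 and 78.1 CPM in KO, log2 ratios of -0.17 in replicate 1 and 0.26 in replicate 2. Nfkb1, which encodes the p50 subunit, stood at 1082 and 778 CPM in WT against 1070 and 877 CPM in KO, so replicate 1 was the higher in both genotypes (0.07 ± 0.19). Rela, which encodes the p65 subunit, stood at 191, 159, 189 and 173 CPM and followed the same order between replicates (0.05 ± 0.12).

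Themis, an adaptor best known from thymocyte selection that acts through the phosphatase Shp1 and has been given both activating and dampening roles, had the largest log2 fold change of the 38 members. It lies on chromosome 10 (28388166 to 28603621, plus strand, mm9) and stood at 69.4 and 78.5 CPM in WT against 85.8 and 95.8 CPM in KO. Both KO libraries lay above both WT libraries, and the shift was alike within replicate 1 (0.31) and replicate 2 (0.29). The log2 fold change was 0.30 ± 0.11 (95% interval 0.01 to 0.58, edgeR unadjusted p = 0.0455), and with genotype as the sole factor it did not pass adjustment in edgeR (1.00), DESeq2 (1.00) or limma-voom (1.00). Leaving out single libraries gave 0.21 to 0.39. Ptpn6, the gene of Shp1, was the member with the most negative value. It stood at 64.6 and 74.6 CPM in WT against 60.5 and 60.3 CPM in KO (-0.21 ± 0.11, 95% interval -0.49 to 0.08), with -0.10 and -0.31 within the replicates. Without WT replicate 2 it was -0.10. Ptpn6 is also expressed in B and myeloid cells: the 6 B cell markers summed to 19.2 and 21.1 CPM in WT against 18.4 and 15.8 CPM in KO, and the 7 myeloid markers found of 8 listed to 99.3, 55.9, 77.4 and 42.7 CPM. Their part in the Ptpn6 values was not tested. Ptpn6 lies 126 kb from Cd4, whose value had the opposite sign.

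Ptprc, the receptor phosphatase CD45, removes an inhibitory phosphate from Lck and can also dephosphorylate activated kinases. It stood at 3120, 3452, 3323 and 3435 CPM, with WT replicate 1 the lowest and the groups overlapping (0.04 ± 0.11).

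The brakes on the proximal kinases split evenly, 3 above 0 and 3 below, and none was called. Csk, the kinase that holds Lck inactive (chromosome 9, 57474454 to 57493460, minus strand, mm9), stood at 169 and 177 CPM in WT against 158 and 165 CPM in KO, with the KO libraries below the WT libraries and -0.10 within each replicate (-0.10 ± 0.09). Ptpn22, its partner phosphatase, stood at 417, 357, 453 and 398 CPM (0.14 ± 0.12), higher in KO within both replicates while the groups overlapped. Ptpn2, a phosphatase of receptor and cytokine signals, stood at 170, 144, 173 and 162 CPM (0.10 ± 0.11).

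The paralogs Ubash3a and Ubash3b encode the Sts phosphatases that act on Zap70 and related kinases. Ubash3a stood at 109, 105, 117 and 98.3 CPM (0.01 ± 0.11), with the KO libraries on either side of the WT libraries. Ubash3b stood at 150 and 156 CPM in WT against 148 and 137 CPM in KO, below WT in both KO libraries (-0.10 ± 0.09). The interval of each fold change includes the other's estimate, and the difference between the paralogs was not tested.

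Dgka and Dgkz convert diacylglycerol and so limit Ras and Prkcq. Dgka stood at 501, 519, 506 and 489 CPM (-0.04 ± 0.08). Dgkz stood at 277 and 282 CPM in WT against 309 and 291 CPM in KO (0.10 ± 0.08), with the KO libraries above. The ubiquitin ligase gene Cblb, which sets the need for Cd28 costimulation, differed mainly between replicates, at 236 and 184 CPM in WT against 219 and 188 CPM in KO (-0.04 ± 0.15). Sla, an adaptor that lowers the number of receptors at the surface, stood at 1195 and 1221 CPM in WT against 1326 and 1319 CPM in KO, so that the KO libraries differed little from each other and lay above WT (0.13 ± 0.09, 95% interval -0.09 to 0.36).

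The feedback inhibitors of NF-kappaB, Nfkbia and Tnfaip3, shared a pattern in which KO replicate 2 stood apart from the other 3 libraries. Nfkbia encodes the inhibitor that keeps NF-kappaB in the cytoplasm, and Tnfaip3 encodes the ubiquitin-editing enzyme A20. NF-kappaB induces both genes. Their stretches before the annotated start are shown because they are the 2 members of this feedback role and both hold a match to the NF-kappaB consensus, which is in capitals. They are read on the minus strand from RefSeq (GRCm38.p6), for Nfkbia the 80 bases at chr12:55492648-55492727 and for Tnfaip3 the 150 bases at chr10:19015411-19015560.
Nfkbia: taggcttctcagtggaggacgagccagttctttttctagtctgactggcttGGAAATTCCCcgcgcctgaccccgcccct
Tnfaip3: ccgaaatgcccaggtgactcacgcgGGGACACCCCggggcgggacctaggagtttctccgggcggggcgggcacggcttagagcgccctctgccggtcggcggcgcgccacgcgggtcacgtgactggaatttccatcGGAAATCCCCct
The consensus, searched on both strands in windows from 250 bases before to 50 bases after a start, was found in 3 of the 31 members with a window, these 2 and Bcl10, and in 9.55% of all genes with one. The Tnfaip3 match farther from the start is read on both strands. A match of letters is a description and shows no binding.

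Tnfaip3 stood at 7044 and 6874 CPM in WT against 7172 and 8430 CPM in KO (chromosome 10, 18720716 to 18735463, minus strand, mm9), a log2 fold change of 0.16 ± 0.12 (95% interval -0.15 to 0.48). Within replicate 1 the log2 ratio was 0.03 and within replicate 2 it was 0.29. Nfkbia stood at 1539 and 1688 CPM in WT against 1609 and 2122 CPM in KO (0.21 ± 0.16), with 0.06 in replicate 1 and 0.33 in replicate 2. The value of both therefore rested on KO replicate 2. Without that library the log2 fold changes were 0.04 for Tnfaip3 and -0.004 for Nfkbia. The 7 epithelial markers summed to 19.0 and 19.5 CPM in WT against 17.9 and 25.5 CPM in KO, highest in the same library. Among them Epcam (14.7, 14.8, 12.1 and 13.6 CPM) and Krt18 (2.01, 2.31, 1.42 and 1.52 CPM) were not highest there. The sums of the CD8 markers (5.88, 6.70, 7.03 and 8.25 CPM) and of 5 stromal and endothelial markers (117, 164, 112 and 165 CPM) were also highest there. The part of these markers' cells in the Tnfaip3 and Nfkbia values was not tested.

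**Figure D2:**
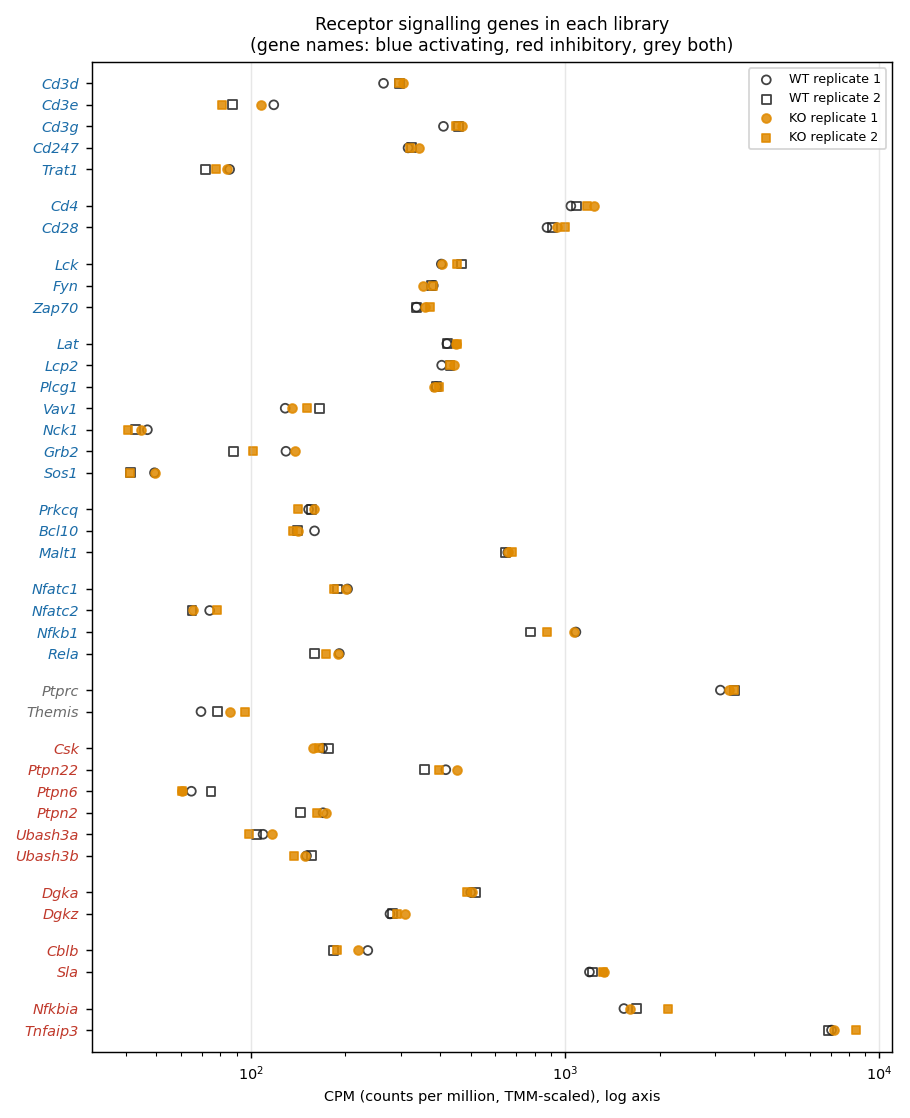
CPM on a log axis (x axis) of each gene (y axis, ordered by role) in the 4 libraries, with open symbols for WT, filled symbols for KO, circles for replicate 1 and squares for replicate 2. The symbols of most genes lie close together, KO replicate 2 stands apart for Nfkbia and Tnfaip3, and replicates separate more than genotypes for Cd3e, Grb2 and Nfkb1.

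The medians of activating and inhibitory members lay close together. The median log2 fold change was 0.04 over the 24 activating members (16 higher, 8 lower) and 0.05 over the 12 inhibitory members (7 higher, 5 lower), a difference of -0.01. Within replicate 1 the medians were 0.01 and 0.03, and within replicate 2 they were 0.01 and 0.04. Without WT replicate 2 the activating median was -0.01 and the inhibitory median -0.02, and without KO replicate 1 the inhibitory median was -0.02, so the sign of these medians depended on single libraries. The difference between the classes was above 0 without WT replicate 2 (0.01), KO replicate 1 (0.03) or KO replicate 2 (0.03). Over 10 pairs of an activating gene and an opponent, the log2 ratio of the pair in KO relative to WT ran from -0.16 for Lck to Ptpn22 to 0.22 for Zap70 to Ubash3b, with 0.08 for Lck to Csk. These pairs were chosen after the values were seen and were not tested.

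The KO libraries lay wholly above or below the WT libraries for 13 of the 38 members (34.2%), against 27% of all tested genes. The 10 members above were Cd4, Cd28, Zap70, Lat, Lcp2, Malt1, Dgkz, Tnfaip3, Sla and Themis, or 26.3% against 13.5% of all tested genes, and the 3 below were Csk, Ptpn6 and Ubash3b, or 7.89% against 13.4%. Of the activating members 6 lay above and 0 below, and of the inhibitory members 3 lay above and 3 below. The log2 ratios of the members above ran from 0.03 (Malt1) to 0.30 (Themis).

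**Figure D3:**
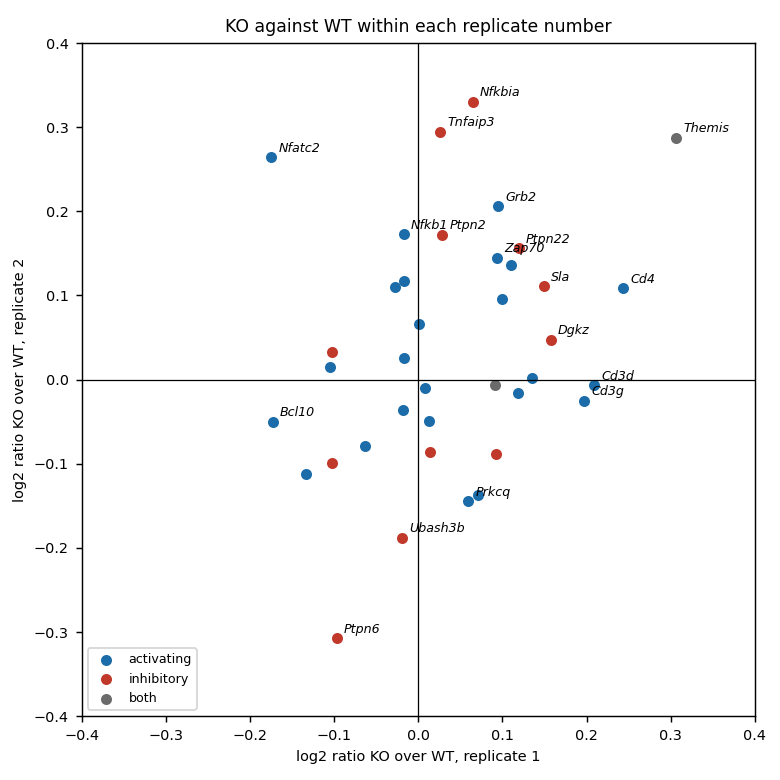
Log2 ratio of KO over WT within replicate 1 (x axis) and within replicate 2 (y axis), 1 point per gene, coloured by class. Themis lies near the diagonal at 0.31 and 0.29, Nfkbia and Tnfaip3 are high on the y axis only, Ptpn6 is lowest on the y axis at -0.31, and activating and inhibitory genes are intermixed.

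The log2 gap between replicate 2 and replicate 1 was averaged with its sign over both genotypes and set against the log2 fold change of KO over WT. This mean gap was larger in size for 19 of the 38 members (50%), against 64% of all tested genes. Gaps of opposite sign cancel in it, as for Nfatc2 (-0.19 in WT and 0.25 in KO). The shares therefore do not count how often replicates of a genotype differed more than the genotypes. Grb2 showed the widest gap, with log2 ratios of replicate 2 over replicate 1 of -0.56 in WT and -0.45 in KO. Cd3e followed with -0.44 and -0.42, and Nfkb1 with -0.48 and -0.29. Cblb (-0.36 and -0.22) and Sos1 (-0.25 and -0.27) were also lower in replicate 2, while Nfkbia (0.13 and 0.40), Vav1 (0.36 and 0.16) and Lck (0.21 and 0.15) were higher. The gap had the same sign in both genotypes for 22 of the 38 members, a smaller share than the 9982 of the 14274 genes tested. Replicate 2 was also deeper, held more Lars2 (367 and 16313 CPM in WT, 639 and 7320 CPM in KO) and more Col3a1, a fibroblast collagen (5.55 and 38.5 CPM in WT, 3.97 and 44.3 CPM in KO), and had lower myeloid marker sums. The part of these in the replicate gap was not tested.

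**Figure D4:**
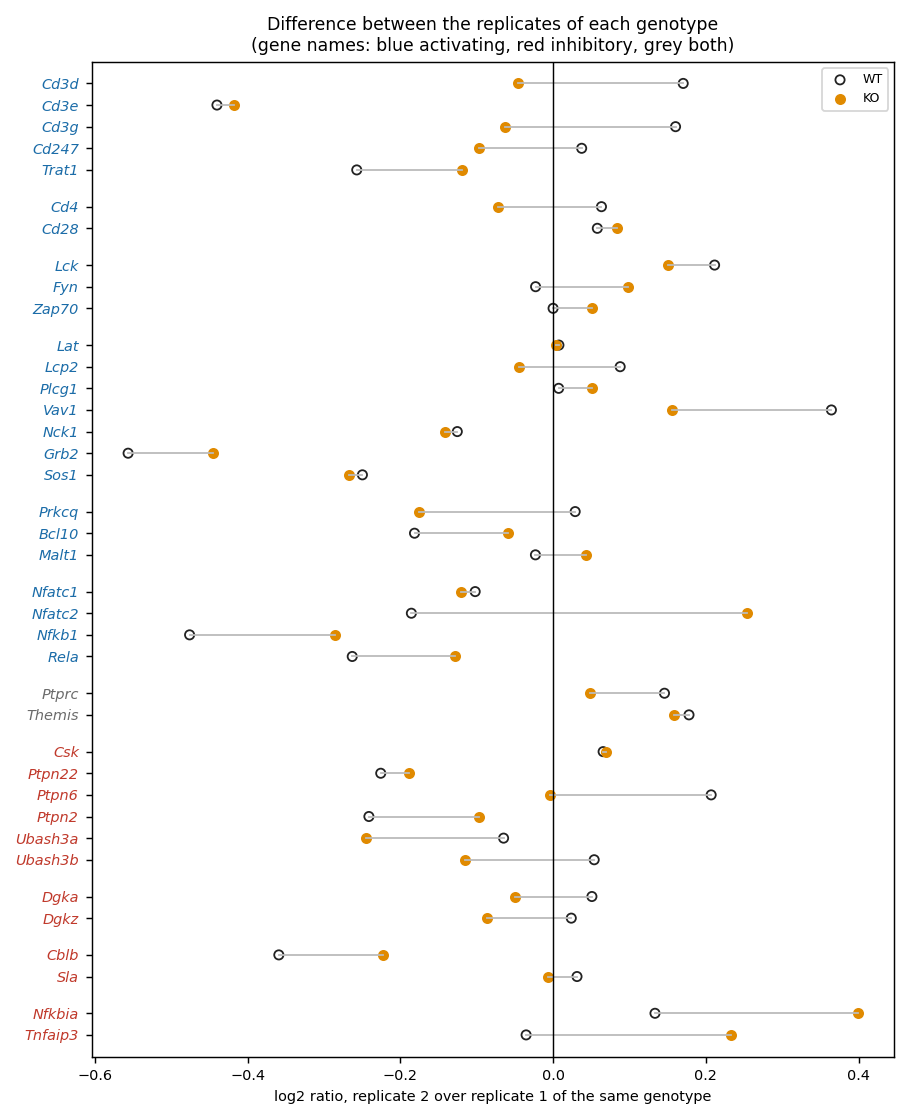
Log2 ratio of replicate 2 over replicate 1 (x axis) for each gene (y axis, ordered by role), with open points for WT and filled points for KO, joined by a line. Grb2 (-0.56 and -0.45), Cd3e (-0.44 and -0.42) and Nfkb1 (-0.48 and -0.29) lie far to the left in both genotypes, and Nfkbia, Vav1 and Lck lie to the right.

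The rest of the pathway was read from a list of 70 further genes of receptor signalling, such as the calcium channel genes, calcineurin subunits, the NF-kappaB kinases and negative adaptors, of which 69 were found and all 69 were tested. Of these, 36 were higher and 33 lower, with a median log2 fold change of 0.00. EdgeR called 0 of them against 0% of all tested genes, with 2 of the 69 at an unadjusted p under 0.05 against 2.85%. DESeq2 called 0 against 0.285% of the genes to which it gave an adjusted p, and limma-voom called 0 against 0%. Nck2, the close relative of Nck1 and likewise an adaptor to the actin cytoskeleton, had the lowest p. It stood at 75.5 and 75.8 CPM in WT against 97.9 and 101 CPM in KO, with no overlap and log2 ratios of 0.38 and 0.42 within the replicates. Its log2 fold change was 0.40 ± 0.09 (95% interval 0.17 to 0.62, edgeR unadjusted p = 0.00552, adjusted p = 1.00, DESeq2 adjusted p = 0.334). The value for Nck1 was -0.07 (95% interval -0.35 to 0.21), below the Nck2 interval. The intervals of the genes overlapped, and the difference between the genes was not tested.

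The genes with the next lowest p above 0 were Pag1 and Laptm5. Pag1, a membrane adaptor that recruits Csk, stood at 106 and 97.1 CPM in WT against 118 and 124 CPM in KO (0.26 ± 0.09, edgeR unadjusted p = 0.0378). Laptm5, a lysosomal protein that lowers receptor levels, stood at 1127 and 1118 CPM in WT against 1268 and 1326 CPM in KO (0.21 ± 0.09). Among those below 0 were Tec (-0.17 ± 0.11), a tyrosine kinase, and Cbl (-0.18 ± 0.12), a ubiquitin ligase related to Cblb. None of the pathway genes named in this comparison passed adjustment in edgeR fitted on genotype alone (1.00 for each).

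Since Ahr is a DNA-binding factor, the windows around the members' starts were also searched for its core element on both strands. TNGCGTG was found in 1 of the 31 members with a window, Dgkz, against 5.84% of all genes. The shorter core GCGTG, which TNGCGTG contains, was found in 13 of the 31, against 35.15% of all genes. The Dgkz stretch, chr2:91950479-91950538 on the minus strand (GRCm38.p6, RefSeq), is shown because it holds the only match to the longer element, in capitals.
Dgkz: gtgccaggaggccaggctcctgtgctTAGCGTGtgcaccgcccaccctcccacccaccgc
The log2 fold change of Dgkz was 0.10 with a 95% interval of -0.11 to 0.31. The members without a window were Cd4, Cd28, Malt1, Ptpn2, Nfatc1, Nfkb1 and Sla.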

How the data were processed

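The counts were whole numbers per gene and library in the authors' deposited table, without normalization. The authors' deposited table also holds 1 adjusted p-value for each row. TopHat2, DESeq and the build mm9 are named, without versions, in the submitters' processing notes. For the counting tool, annotation and strand, the entry is "not given in the sources used here", and overlapping genes and paralogs could share reads. Labelled genotype set the groups, with 2 libraries each. ATAC-seq samples of the series were left out because the members were defined on RNA. KO was tested against WT by quasi-likelihood in edgeR 4.0.16 (R 4.3.3) on genotype alone, with filterByExpr (14274 genes kept), TMM scaling and Benjamini-Hochberg adjustment over all tested genes. Standard errors and 95% intervals came from the same fit, with 2 residual and 3.49 prior degrees of freedom. CPM of members and pathway genes used tested-gene totals with TMM factors, and marker sums used all-gene totals. Log2 ratios within a replicate used a prior count of 2. DESeq2 1.42.0 and limma 3.58.1 (voom) were alternatives. Scripts were tested on simulated data, drawn with the same dispersion for all genes and without a replicate effect. The simulation therefore does not test the fits where same-numbered libraries share deviations. Members, classes and lists were chosen with earlier results of these data known. Any of the 38 members could be named, beside called genes and the 3 of lowest p per direction of the other pathway genes, Ahr, Ahrr, Lars2 and cell type markers. A result that this rule would name is not reported here. Promoter windows came from RefSeq (GRCm38.p6), matched by symbol for 31 of 38 members.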

Additional observations from a re-analysis of the deposited data

How the results depend on the processing

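The count of members called was also 0 under other scaling (size factors of DESeq2 or upper quartiles), other filters (none, or 2 CPM in 2 libraries), other tests (limma-voom, DESeq2, edgeR with robust estimation or its newer method), a threshold of 0.1 and in each fit that left out 1 library. Counting Ptprc and Themis as activating and Fyn in neither class gave a class difference of -0.0053. With the replicate number as a block (replicate block), edgeR called 1 member, Themis, higher (adjusted p = 0.00927), and 5 other pathway genes, among them Nck2, Pag1, Grap2 and Orai1, all 4 higher, with 458 calls over the 14274 genes tested. Grap2 and Orai1 were named after their values were seen. That fit has 1 residual degree of freedom. The labels do not say that the number pairs the libraries, and deviations of same-numbered libraries from their genotype means correlated across genes at 0.641. Alternatives with all libraries moved no member's log2 fold change by more than 0.015. Without single libraries the activating median ran from -0.0097 to 0.0852, the inhibitory median from -0.021 to 0.1015 and their difference from -0.0636 to 0.0306. The signs of 15 uncalled members, judged at 2 decimals, turned without some library. At more decimals Nfkbia (lowest -0.004), Plcg1 (lowest -0.021) and Sos1 (lowest -0.149) also crossed 0. The log2 fold changes of the 15 ran from -0.357 to 0.111 for Cd3e, -0.007 to 0.099 for Cd247, -0.124 to 0.089 for Lck, -0.14 to 0.044 for Prkcq, -0.215 to 0.15 for Vav1, -0.112 to 0.444 for Grb2, -0.032 to 0.114 for Ptprc and -0.02 to 0.22 for Ptpn2. For the others they ran from -0.211 to 0.147 for Cblb, -0.098 to 0.032 for Nfatc1, -0.084 to 0.159 for Nfatc2, -0.154 to 0.322 for Nfkb1, -0.081 to 0.182 for Rela, -0.131 to 0.124 for Ubash3a and -0.087 to 0.169 for Trat1. The cause was not tested. These fits leave 1 library in a genotype, which is assumed to vary like the others. The order of levels between genes was not run, since no transcript lengths were used here.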
